A study of Drosophila melanogaster with 9 samples.

Results

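Glucose alone was compared with complete standard medium in dissected whole guts of adult females of the laboratory fruit fly strain Oregon R (Drosophila melanogaster). The comparison took 6 of the 9 libraries of the series by their diet label, 3 from flies on 10% glucose and 3 from flies on standard medium. The other 3 libraries, from flies on agar, entered the same fit, and their levels are set beside some genes without a comparison. The 3 libraries of a diet were biological repeats, and the repeat number was used as a pairing block. The sources used here do not give the age of the flies, the days on each diet, the composition of the standard medium or the number of guts per library. Of 10245 genes in the files, the 8036 with at least 1 RPKM (reads per kilobase, set against the reads of the whole library) in at least 3 of the 9 libraries were tested. Levels below are scaled RPKM, that is RPKM divided by a median-ratio factor for each library, in the order of repeats 1, 2 and 3. A difference is glucose minus standard medium on the log2(scaled RPKM + 1) scale, and a gene was called when its Benjamini-Hochberg adjusted p over all 8036 genes was under 0.05. The verbs rose and fell are kept for called genes.

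The adult midgut is lined by absorptive and secretory enterocytes, among which lie enteroendocrine cells and stem cells, and it is wrapped in visceral muscle. Enterocytes secrete proteases, glycosidases, lipases and lysozymes into the lumen and take up sugars, amino acids and lipids. Standard fly food usually supplies yeast protein, lipid and sterol together with carbohydrate, whereas a glucose diet offers sugar alone. If the standard medium here was of that kind, the diets differed in the other nutrients. They may have differed in the amount of sugar as well. In such bulk samples, fewer cells of a type and less RNA per cell cannot be told apart.

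Reads per library, recovered from the deposited values, were 37036132 to 39606248 on glucose and 43851820 to 48389188 on standard medium, so that 1 read per kilobase stood for 0.0207 to 0.0270 RPKM before scaling. Libraries are named below by diet and repeat, as in standard 2. Standard 2 and 3 stood apart from the other libraries: on the first principal component, with 51.3% of the variance, they lay at 42.2 and 38.8, standard 1 at 1.92 and the other 6 between -20.5 and -9.80. The 110 replication-dependent histone genes stood a median of 4.21 and 3.63 (log2) above their own median library in standard 2 and 3, and 0.09 above it in standard 1. The 5 ribosomal RNA genes and pseudogenes stood 4.25 and 3.70 above it in the same libraries. Of 7 midgut marker genes in the files 6 passed the filter for testing. Among them Myo61F, a myosin of the enterocyte brush border, stood at 166, 153 and 166 on glucose against 174, 153 and 193 on standard medium.

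More genes fell than rose on glucose. Among the lists, 10 of 17 Jonah proteases, 5 of 10 lysozymes and 6 of 27 genes of ER translocation and folding fell, and the rises of largest size included the alkaline phosphatase gene Alp2 and the sphingomyelinase-like genes CG15533 and CG15534. Of the 8036 tested genes 437 (5.44%) were called, 152 (1.89%) higher and 285 (3.55%) lower on glucose. Counts of called list members below are to be read beside these shares. The called rises had a median difference of 0.58 and the called falls one of -0.78, and 20 rises against 100 falls were at least 2-fold. Of those 100 falls, 45 were histone genes, which are described apart. All 437 had the same sign in each of the 3 repeats, which calling by a fit blocked on repeat favours. In 414 of them the glucose and standard libraries did not overlap, which the calling favours too. Over all tested genes 12.1% lay above and 15.1% below without overlap. Over all tested genes the median difference was 0.01, and 2021 genes had an unadjusted p under 0.05. With the values as deposited, without scaling, it was 0.25 and the split was 3386 higher and 290 lower, and with quantile normalization the split was 183 higher and 143 lower.

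The number of calls leaned on single libraries. Without glucose 3 there were 4 genes called higher and 5 lower, without standard 3 there were 6 and 13, without glucose 2 there were 5 and 18, without standard 2 there were 11 and 22, and without glucose 1 there were 12 and 30. Without agar 3, in turn, 214 were called higher and 432 lower, without agar 1 there were 93 and 150, and without agar 2 there were 60 and 107. With standard 2 and 3 both left out, 2 were called higher and 3 lower. In each of these fits all 437 genes kept the sign of their difference, which their choice by the full fit favours. The genes that passed without each of the 9 libraries in turn were 8: Alp2 (listed as CG3290), CG13215, CG15533 and CG15534, which rose, and Gabat (listed as CG7433), CG8468, CG11892 and CG9259, which fell. Every other called gene named below lost its call when at least 1 library was left out, with adjusted p of up to 0.211. The last 2 of the 8 genes, whose roles are left out here, were at low level: CG9259 stood at 0.687, 0.192 and 0.370 on glucose and at 4.03, 3.76 and 3.98 on standard medium, and CG11892 at 0.745, 0.207 and 0.990 against 3.84, 3.85 and 3.79.

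**Figure D1:**
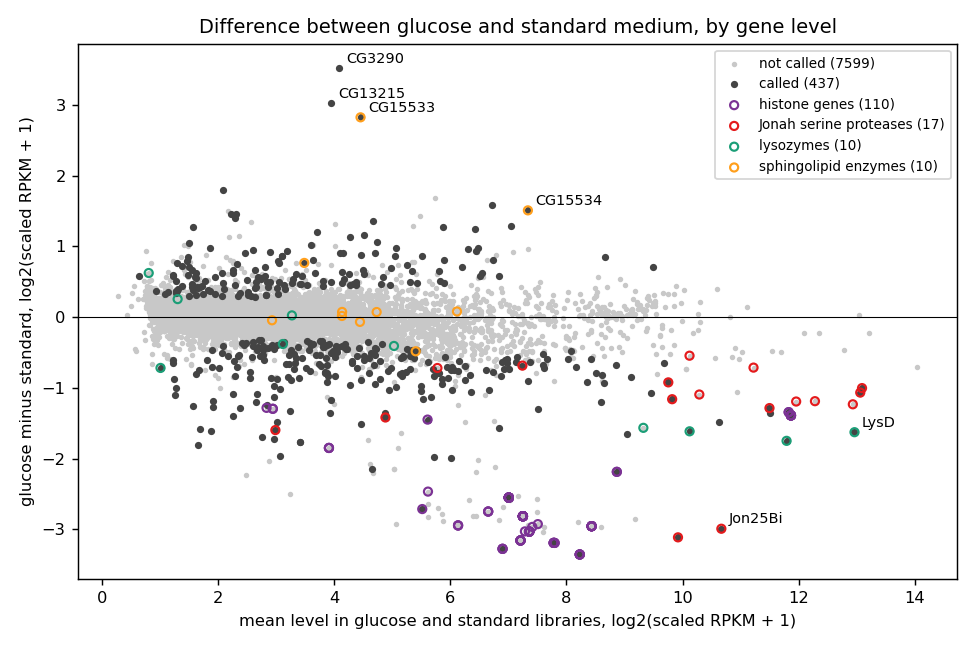
Each point is a tested gene, with its mean level over the 6 glucose and standard libraries on the horizontal axis and its difference, glucose minus standard medium, on the vertical axis, both on the log2(scaled RPKM + 1) scale. Black points are the 437 called genes and rings mark histones, Jonah serine proteases, lysozymes and sphingolipid enzymes; Jonah proteases and lysozymes lie low among the genes of highest level, and the sphingomyelinase-like CG15533 and CG15534 lie high.

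Jonah protease genes had lower levels on glucose. They encode chymotrypsin-like serine proteases of the midgut lumen. All 17 tested Jonah genes had a negative difference (48.4% of all tested genes did), 10 of the 17 fell and 0 rose, against 3.55% called lower among all genes, and in 15 the glucose libraries lay below every standard library (15.1% of all genes). Their median difference was -1.16, beside 0.01 over all genes, and -1.14, -0.79 and -1.33 in repeats 1, 2 and 3. The summed level of the 17 genes was 29608, 31333 and 24446 scaled RPKM on glucose, 74415, 56749 and 60586 on standard medium, and 31555, 22637 and 14031 on agar.

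The sharpest falls were in the pair Jon25Bi and Jon25Bii. Jon25Bi stood at 218, 522 and 402 on glucose against 2787, 2539 and 3276 on standard medium, and at 718, 801 and 492 on agar. Each glucose library was far below each standard library, with a mean 7.53-fold higher on standard medium (difference -2.99, SE 0.31, adjusted p = 0.00960). Jon25Bii gave 133, 267 and 214 on glucose against 1916, 1356 and 1919.7 on standard medium (difference -3.11, SE 0.37, adjusted p = 0.0133). Without glucose 3 their adjusted p was 0.0646 and 0.0774. The Jonah genes of highest level moved less but in the same direction: yip7 stood at 6428, 6109 and 4866 on glucose against 13312, 10897 and 10629 on standard medium (difference -1.004, SE 0.21, adjusted p = 0.0442) and Jon65Aiii at 5862, 5866 and 4802 on glucose against 12876, 10802 and 10935 on standard medium (difference -1.07, SE 0.16, adjusted p = 0.0219). At the other end, Jon66Cii was a gene of low level and gave 2.34, 5.84 and 1.29 on glucose against 11.9, 13.5 and 6.79 on standard medium (difference -1.60, SE 0.19, adjusted p = 0.0125).

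Of the Jonah genes that were not called, Jon65Aiv had a difference of -1.23 (adjusted p = 0.0583), Jon99Cii of -1.19 (0.0665), Jon99Ciii of -1.19 (0.0747) and Jon99Fi of -1.09 (0.0531). Jon65Aii had the difference nearest 0, at -0.55. Neighbouring Jonah genes are close copies, so reads may have been split between them. With quantile normalization the median of the 17 was -0.42 and 3 fell. Without glucose 3 or without standard 3 none was called, and without agar 3 there were 16. Without the pairing block 2 of the 17 were called lower. Also serine protease genes, and chosen after their values were seen, CG18179, CG18180 and CG6462 fell as well. CG18179 gave 20.8, 26.2 and 28.3 on glucose against 109, 101 and 95.03 on standard medium (difference -1.99, SE 0.20, adjusted p = 0.00960), CG18180 gave 1651, 1883 and 1377 on glucose against 4402, 3968 and 4088 on standard medium (difference -1.35, SE 0.23, adjusted p = 0.0287), and CG6462, at low level, gave 4.44, 4.21 and 3.08 on glucose against 9.20, 9.68 and 10.1 on standard medium (difference -1.13, SE 0.14, adjusted p = 0.0162).

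**Figure D2:**
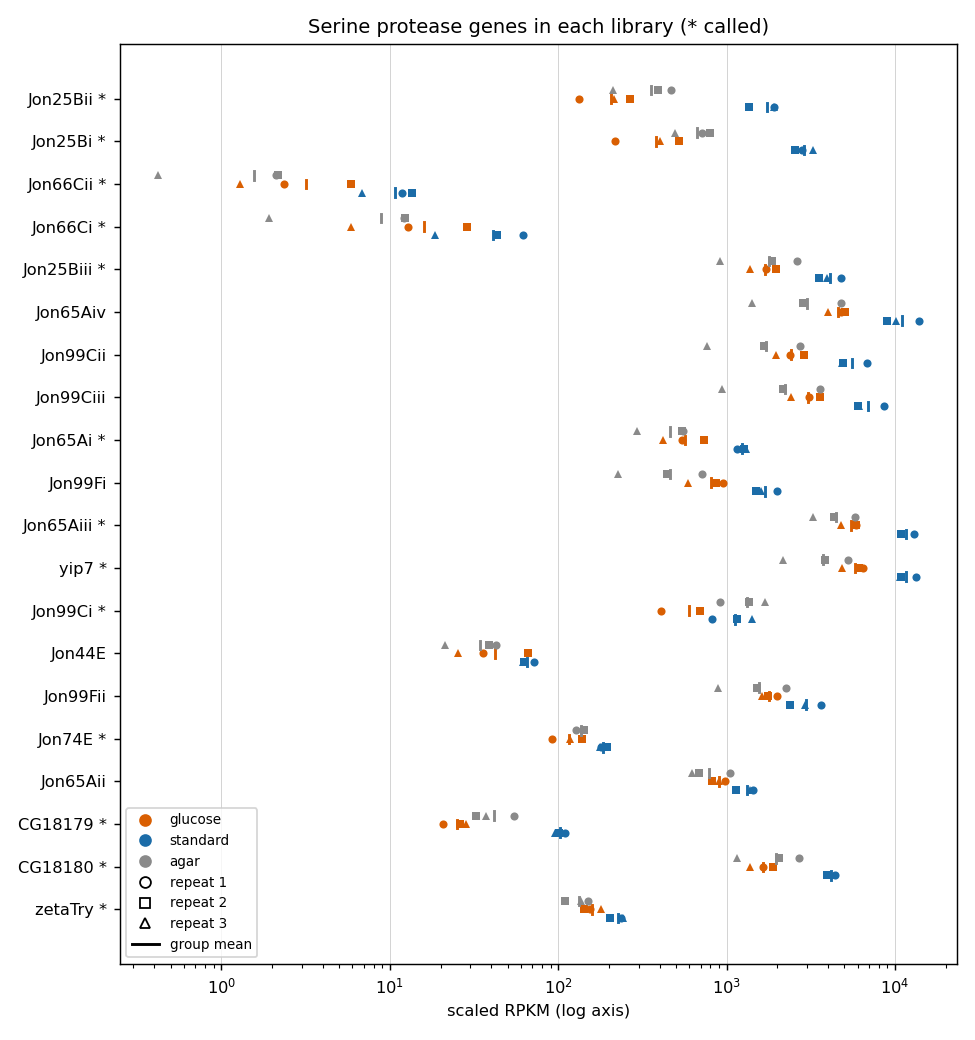
Levels of the 17 Jonah genes, CG18179, CG18180 and zetaTry in each of the 9 libraries on a log axis of scaled RPKM, with colours for diet, marker shapes for repeats 1, 2 and 3 and a bar for each diet's mean; asterisks mark called genes. Jon25Bi and Jon25Bii show the widest gap between glucose and standard medium.

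The trypsins moved less. Of 13 tested, zetaTry fell, from 228 ± 21.4 scaled RPKM on standard medium to 159 ± 19.8 on glucose (SD, n = 3; difference -0.52, SE 0.11, adjusted p = 0.0473), and 0 rose. In 9 of the 13 the glucose libraries lay below all standard libraries (15.1% of all genes). The trypsin of highest level, alphaTry, stood at 9048, 9193 and 7720.1 on glucose against 11959.9, 8848 and 9819 on standard medium, with groups that overlapped (difference -0.23, adjusted p = 0.525), and deltaTry had a difference of -0.91 (adjusted p = 0.0926). The median trypsin difference was -0.44 as scaled here but 0.16 with quantile normalization, and zetaTry itself was 0.16 there, so the direction of the trypsins depended on the scaling. Without agar 3 there were 6 trypsins called lower, and without any other single library there were 0.

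Carboxypeptidases, astacins and aminopeptidases cut peptides from their ends or within. Of 21 tested genes 5 fell and 0 rose (3.55% of all genes fell), with a median of -0.34 (0.01 with quantile normalization). The astacin-type metalloprotease CG15253 gave 8.92, 6.83 and 9.80 on glucose against 18.6, 17.9 and 24.9 on standard medium (difference -1.17, SE 0.21, adjusted p = 0.0309). The aminopeptidase genes CG8773, CG31233 and CG31343 fell by 0.67, 0.68 and 0.65, although CG8773 stood at 0.01 with quantile normalization. CG31233, for one, stood at 345, 335 and 382 on glucose against 491, 576 and 648 on standard medium, with the glucose libraries below each standard library. CG7631, another astacin, fell by 0.84. The carboxypeptidase gene CG12374, at 14182, 11867 and 12481 on glucose against 22239, 19185 and 21320.4 on standard medium, was not called (difference -0.70, adjusted p = 0.0583). Without glucose 1, 2 or 3 or standard 2 or 3 none of the 21 was called, and without agar 3 there were 8. None was called without the pairing block.

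Lysozymes, which in the fly gut digest bacterial cell walls, were lower on glucose in the members of highest level. Of 10 tested, 5 fell and 0 rose (3.55% of all genes fell), and the median difference was -0.56. LysD stood at 4209.8, 4668 and 2914 on glucose against 13938, 10731 and 11293 on standard medium, and at 5286, 3109 and 1679.7 on agar. Its glucose libraries lay below each standard library, by a mean of 3.05-fold (difference -1.63, SE 0.28, adjusted p = 0.0287). LysB gave 1745, 1991 and 1183 on glucose against 6342, 5379 and 4588 on standard medium (difference -1.75, SE 0.23, adjusted p = 0.0166), and LysE gave 555, 681 and 417 on glucose against 1989, 1562 and 1464 on standard medium (difference -1.61, SE 0.26, adjusted p = 0.0261). LysC, at a difference of -1.57 (adjusted p = 0.0793), was not called, and LysX, LysS, CG16799, CG6426, CG6421 and CG16756 ranged from -0.72 to 0.62, of which LysS and CG16799 fell. LysB to LysE are close copies, and LysC and LysD overlap on opposite strands, so their reads may have been shared.

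The multiple wing hairs gene mwh, which acts on the placing of hairs on wing cells, also fell, from 975, 734 and 682 on standard medium to 261, 316 and 187 on glucose (difference -1.66, SE 0.26, adjusted p = 0.0249). In the reference annotation 6 lysozyme genes lie within its span, and the sources used here do not say how its reads were told from theirs. Cht9, of the chitinase family and chosen after its values were seen, stood at 65.5, 45.5 and 56.9 on glucose against 222, 170.5 and 119.9 on standard medium (difference -1.56, SE 0.22, adjusted p = 0.0185). Without glucose 1, 2 or 3 or standard 2 or 3 none of the lysozymes was called, and without agar 3 there were 6. None was called without the pairing block. With quantile normalization the lysozyme median was -0.52 and 3 fell.

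Genes of bacterial recognition and defence did not move as one. PGRP-LA, a peptidoglycan recognition gene, and Irc, a catalase of the gut lumen that removes hydrogen peroxide, rose, and they were the 2 called of 13 tested. Irc stood at 9.38, 9.67 and 9.09 on glucose against 5.03, 5.24 and 4.72 on standard medium, all glucose libraries above all standard libraries (difference 0.79, SE 0.13, adjusted p = 0.0249), and PGRP-LA at 9.10, 9.29 and 9.22 on glucose against 6.36, 6.83 and 6.22 on standard medium (difference 0.45, SE 0.07, adjusted p = 0.0226). PGRP-SC2, which encodes an amidase that degrades peptidoglycan, had the lowest difference of the 13, -0.80 (adjusted p = 0.0902). Of 4 tested antimicrobial peptide genes, Def fell and Drsl3 rose, both at low level: Def gave 1.02, 2.58 and 2.82 on glucose against 5.52, 5.39 and 5.46 on standard medium (difference -1.09, SE 0.20, adjusted p = 0.0347), and Drsl3 gave 1.41, 3.13 and 3.12 on glucose against 0.753, 1.14 and 1.10 on standard medium (difference 0.79, SE 0.17, adjusted p = 0.0442). Without standard 1 the call of Def was lost, and without glucose 2 the adjusted p of PGRP-LA, Irc, Def and Drsl3 was 0.107, 0.133, 0.118 and 0.176. The lectin gene lectin-24A, chosen after its values were seen, gave 1.97, 1.59 and 1.98 on glucose against 3.23, 9.91 and 16.1 on standard medium (difference -1.70, SE 0.35, adjusted p = 0.0435), high in standard 2 and 3.

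Most maltase genes had higher levels on glucose than on standard medium, and the amylases proper did not. Of 13 tested amylase and maltase genes 2 rose and 0 fell (1.89% of all genes rose), 8 had glucose libraries above every standard library (12.1% of all genes), and the median difference was 0.96 (0.51 without standard 2). Amyrel, an amylase-related gene, stood at 6.62, 4.77 and 5.52 on glucose against 0.830, 0.827 and 1.04 on standard medium, and at 19.7, 51.0 and 63.3 on agar (difference 1.799, SE 0.34, adjusted p = 0.0363 for glucose against standard medium). The maltase gene Mal-A4 stood at 22.3, 20.98 and 33.5 on glucose against 11.1, 8.01 and 14.3 on standard medium and 45.9, 59.9 and 69.6 on agar (difference 1.14, SE 0.15, adjusted p = 0.0166). In both genes the levels on glucose lay between those of the other diets.

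Several maltases of higher level had large differences that were not called. The maltase-like tobi, a target of brain insulin and glucagon-like signals, gave 81.1, 79.7 and 74.3 on glucose against 28.5, 11.9 and 39.0 on standard medium and 303, 968 and 831 on agar (difference 1.68, SE 0.50, adjusted p = 0.0950), and Mal-A1 gave 164, 196 and 268 on glucose against 93.7, 75.4 and 165 on standard medium (difference 0.96, SE 0.30, adjusted p = 0.110). Mal-A6 had a difference of 1.43 (adjusted p = 0.0640) and Mal-A8 of 1.31 (0.106). The 2 amylase genes Amy-p and Amy-d, near-identical copies whose reads may be shared, overlapped between diets: Amy-p stood at 734, 898 and 577 on glucose against 1265, 611 and 683 on standard medium (difference -0.16, adjusted p = 0.841, and 0.20 on the log2 scale with quantile normalization). For the 13 genes the count called higher was 0 without glucose 1, 2 or 3 or standard 2 or 3. It was also 0 without the pairing block, and 4 without standard 1 or with quantile normalization. Without standard 2 and 3 together their median was 0.39.

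Of 10 other glycosidases tested, 3 fell and 0 rose (3.55% of all genes fell). The median of the 10 was -0.52 (-0.32 without glucose 3), and 4 of the 10 had a positive difference. The 3 were LManII, LManV and LManVI (listed as LM408, CG9466 and CG9468), lysosomal alpha-mannosidases, which trim sugars from glycoproteins. LManVI stood at 289, 398 and 479 on glucose against 572, 567 and 994 on standard medium, and at 749.6, 762 and 1283 on agar (difference -0.85, SE 0.14, adjusted p = 0.0290). LManV gave 155, 209 and 311 on glucose against 342, 340.1 and 592 on standard medium (difference -0.92, SE 0.16, adjusted p = 0.0294) and LManII gave 243, 305 and 298 on glucose against 381, 527 and 599 on standard medium (difference -0.81, SE 0.14, adjusted p = 0.0309). Trehalase (Treh), which splits the blood sugar of insects, had a difference of 0.40 (adjusted p = 0.184), and the beta-galactosidase Gal one of 0.11 (0.540). LManV and LManVI are close copies with reads that may be shared. None of the 10 was called with quantile normalization (median -0.26) or without the pairing block. Without glucose 1, 2 or 3 or standard 2 or 3 none was called either, against 5 without agar 3.

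**Figure D3:**
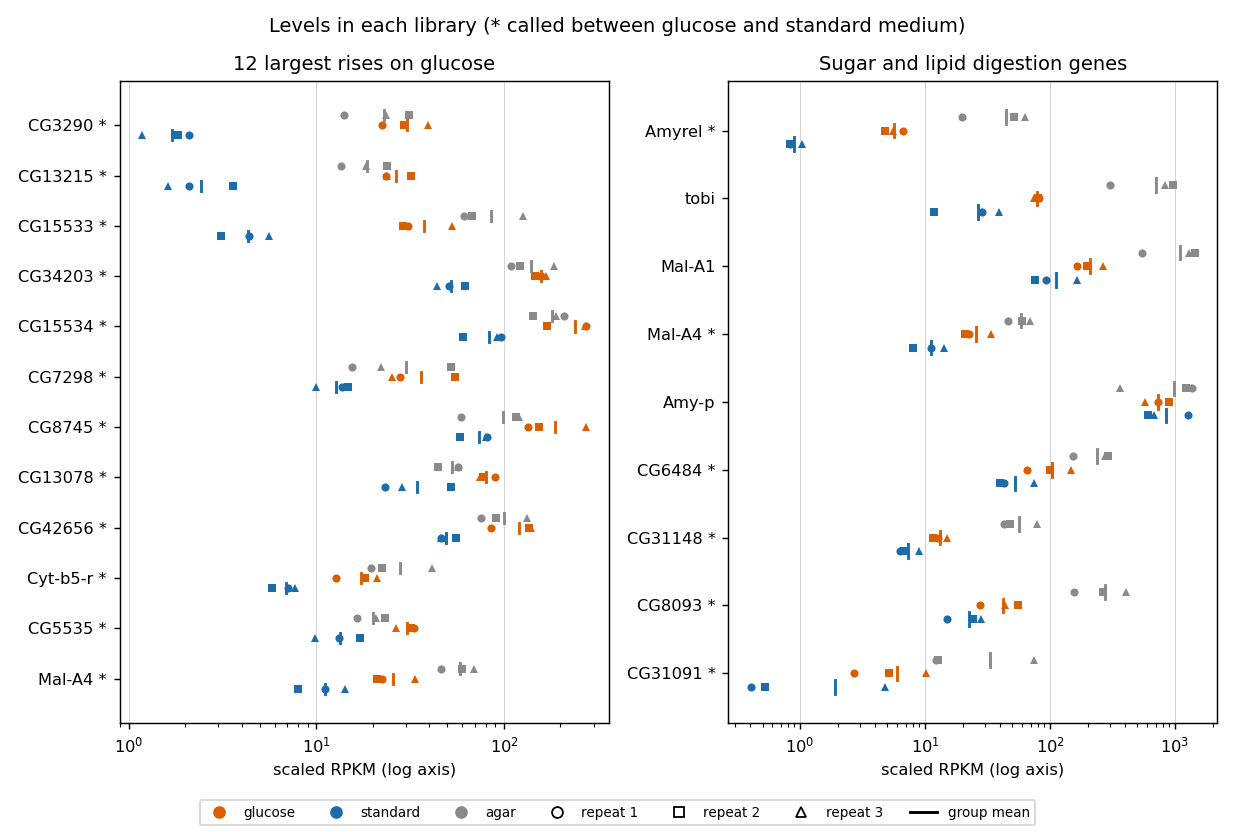
Levels in each library, on log axes of scaled RPKM, of the 12 largest rises with a mean of at least 10 scaled RPKM (left) and of sugar and lipid digestion genes (right), with colours for diet, shapes for repeats and a bar for each diet's mean; asterisks mark called genes. For Amyrel and tobi the glucose libraries lie between standard medium and agar, whereas the glucose and standard libraries of CG8093 and of Amy-p overlap.

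Sphingolipid-degrading enzymes held 2 of the 4 rises that were called without each library in turn. CG15533 and CG15534 encode acid sphingomyelinase-like enzymes, which release ceramide from sphingomyelin and related lipids. CG15533 stood at 30.7, 28.9 and 53.0 on glucose against 4.37, 3.10 and 5.57 on standard medium, and at 61.1, 67.1 and 127 on agar. Its mean on glucose was 37.5 ± 13.4 against 4.34 ± 1.23 on standard medium (SD, n = 3; difference 2.82, SE 0.14, adjusted p = 0.000707). CG15534 gave 275, 169 and 270.3 on glucose against 96.0, 60.7 and 91.8 on standard medium (difference 1.51, SE 0.10, adjusted p = 0.00254). Both were called without each library in turn, with adjusted p of at most 0.0233 and 0.0367. The glucocerebrosidase gene Gba1a (listed as CG31148) rose less, with 12.7, 11.6 and 14.9 on glucose against 6.27, 6.72 and 9.00009 on standard medium and 42.5, 48.0 and 78.6 on agar (difference 0.76, SE 0.13, adjusted p = 0.0276). The sphingosine-1-phosphate lyase gene Sply, which ends the degradation pathway, fell (difference -0.48, SE 0.10, adjusted p = 0.0439; -0.21 and not called with quantile normalization). The 6 other tested members had differences from -0.07 to 0.08, including the synthesis genes lace, Spt-I, schlank and ifc, and the median of the 10 was 0.07.

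Triglyceride lipases were divided. The adipose triglyceride lipase bmm, which mobilises fat inside cells, stood at 31.0, 27.4 and 26.7 on glucose against 57.2, 67.6 and 53.7 on standard medium and at 25.1, 19.1 and 25.6 on agar (difference -1.04, SE 0.15, adjusted p = 0.0185), so that the level on glucose was near the level on agar. CG6283, of the pancreatic lipase family, fell, from 151, 136 and 167 to 86.0, 107 and 80.0 (difference -0.73, SE 0.16, adjusted p = 0.0456). The acid lipase family genes CG8093 and CG31091 rose: CG8093 gave 27.3, 55.7 and 43.3 on glucose against 15.03, 24.03 and 28.1 on standard medium and 156, 267 and 404 on agar (difference 0.87, SE 0.18, adjusted p = 0.0439), and CG31091 gave 2.71, 5.14 and 10.1 on glucose against 0.401, 0.522 and 4.79 on standard medium (difference 1.45, SE 0.26, adjusted p = 0.0311). In both the glucose and standard libraries overlapped across repeats while each repeat went up. The gut lipase mag stood at 457, 397 and 511 on glucose against 564, 452 and 617 on standard medium (difference -0.25, adjusted p = 0.443, and 0.19 with quantile normalization). Of 16 tested lipases 2 rose and 2 fell (1.89% of all genes rose and 3.55% fell). Their median was -0.26 (-0.17 without glucose 3), and none was called without glucose 1, 2 or 3 or standard 2 or 3.

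Acyl-CoA synthetases join fatty acids to coenzyme A before use. CG4563, an acyl-CoA synthetase-like gene, stood at 7.27, 3.54 and 12.8 on glucose against 52.1, 13.8 and 56.1 on standard medium (difference -2.14, SE 0.17, adjusted p = 0.00450). The values of repeat 2 were low on each diet, and the difference held within each repeat. The like genes CG8834 and CG17999 gave 215, 216 and 268 on glucose against 523, 465 and 631 on standard medium (difference -1.21, SE 0.12, adjusted p = 0.00909) and 4.95, 3.82 and 1.58 on glucose against 11.3, 10.96 and 9.88 on standard medium (difference -1.48, SE 0.23, adjusted p = 0.0222). The very-long-chain acyl-CoA synthetase bgm fell from 61.9, 52.2 and 61.2 to 30.4, 23.98 and 33.5 (difference -0.98, SE 0.11, adjusted p = 0.00960). Pmp70, a peroxisomal fatty acid transporter now named Abcd3, gave 70.4, 66.1 and 61.6 on glucose against 150.3, 124 and 133 on standard medium (difference -1.03, SE 0.13, adjusted p = 0.0166). CG4563, CG8834, CG17999 and Pmp70 were chosen after their values were seen. Acyl-CoA synthetase genes were not counted as a list, so these genes do not describe the family.

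Of 17 tested fatty acid oxidation genes 2 fell and 0 rose, the peroxisomal acyl-CoA oxidase Acox3 (listed as CG9527; difference -0.63, SE 0.10, adjusted p = 0.0276; -0.04 with quantile normalization) and the carnitine acetyltransferase CRAT (listed as CG1041; difference -0.43, SE 0.09, adjusted p = 0.0425). Over all tested genes 3.55% fell. In 10 of the 17 the glucose libraries lay below each standard library (15.1% of all genes), and the median was -0.35. The carnitine palmitoyltransferase whd, which brings fatty acids into mitochondria, had a difference of 0.44 (adjusted p = 0.193). Of 13 tested fatty acid synthesis and NADPH genes bgm and malic enzyme (Men; difference -0.56, SE 0.08, adjusted p = 0.0208) fell, 0 rose and the median was -0.19. The scavenger receptor ninaD, which takes up carotenoids, gave 13.9, 10.3 and 20.4 on glucose against 50.5, 19.2 and 56.2 on standard medium (difference -1.35, SE 0.23, adjusted p = 0.0287; chosen after its values were seen). Without glucose 1, 2 or 3 none of these lists held a called gene, and without agar 3 the oxidation list held 6. Of 10 tested Niemann-Pick type C genes, which handle sterols, 0 were called by limma (2 had an unadjusted p under 0.05), the median was 0.01, and Npc1b, needed for sterol uptake in the midgut, stood at 38.3, 19.5 and 37.0 on glucose against 35.3, 21.9 and 38.4 on standard medium.

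A few amino acid transporter genes were called, in both directions. The cationic amino acid transporter slif stood at 46.8, 42.3 and 40.5 on glucose against 85.6, 82.0 and 71.7 on standard medium, and at 34.3, 25.8 and 28.8 on agar. Glucose libraries lay below standard libraries in each repeat (difference -0.87, SE 0.10, adjusted p = 0.0125). The proton-coupled transporter family gene CG7888 fell from 18.9, 24.1 and 18.5 to 11.3, 8.60 and 3.94 (difference -1.36, SE 0.22, adjusted p = 0.0249). CG5535, also of the cationic amino acid transporter family, rose, at 33.2, 31.8 and 26.5 on glucose against 13.2, 17.1 and 9.79 on standard medium (difference 1.16, SE 0.16, adjusted p = 0.0177). In all, 1 of 19 tested amino acid and peptide transporters rose and 2 fell (1.89% of all genes rose and 3.55% fell). Their median was -0.13 (0.03 with quantile normalization and -0.21 without standard 3). None was called without glucose 1, 2 or 3 or standard 2 or 3.

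Other carriers of small molecules moved too. Of 12 tested sugar transporter family genes CG6484 rose, with 65.6, 100.4 and 147 on glucose against 42.8, 40.1 and 74.7 on standard medium and 152, 291 and 273 on agar (difference 0.96, SE 0.21, adjusted p = 0.0473), 0 fell and the median was 0.07. CG8468, of the monocarboxylate transporter family, gave 4.76, 3.35 and 5.16 on glucose against 12.6, 10.4 and 14.6 on standard medium (difference -1.32, SE 0.09, adjusted p = 0.00254) and kept its call without each library. MFS1 (listed as CG30272), a major facilitator transporter, gave 27.8, 19.5 and 14.8 on glucose against 77.0, 84.1 and 85.4 on standard medium (difference -1.98, SE 0.38, adjusted p = 0.0365). The gene dmGlut, which is not in the sugar transporter list, gave 119, 104 and 112 on glucose against 205, 215 and 209 on standard medium (difference -0.90, SE 0.11, adjusted p = 0.0162). It was at -0.28 and not called with quantile normalization. CG8468, MFS1 and dmGlut were chosen after their values were seen.

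Gabat, the GABA transaminase, stood at 2.63, 2.62 and 2.54 on glucose against 9.04, 10.0 and 13.9 on standard medium and at 5.88, 5.83 and 6.05 on agar (difference -1.72, SE 0.12, adjusted p = 0.00254), and its glucose libraries were the lowest of all 9. The phosphoserine phosphatase aay, the last step of serine synthesis, fell from 41.4, 34.4 and 54.8 to 20.8, 18.3 and 24.3 (difference -0.99, SE 0.09, adjusted p = 0.00674; adjusted p = 0.0511 without glucose 3). It was 1 of 2 called among 13 genes of the amino acid stress response, both lower, with a median of -0.25 (-0.09 without glucose 1, -0.39 without standard 2 and -0.14 with quantile normalization). The translation inhibitor Thor (4E-BP) stood at 214, 207 and 291 on glucose against 216, 133 and 237 on standard medium (difference 0.31, adjusted p = 0.464), and 0 of 22 aminoacyl-tRNA synthetases were called by limma (4 had an unadjusted p under 0.05, and 1 was called without agar 3), with a median of -0.11.

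Phosphoenolpyruvate carboxykinase (Pepck), of gluconeogenesis, fell from 35.4, 21.8 and 43.2 to 19.2, 15.4 and 14.4 (difference -0.95, SE 0.18, adjusted p = 0.0374), and was called in the absence of agar 3 alone among the 9 left-out libraries. Citrate synthase (kdn), which opens the citric acid cycle and was chosen after its values were seen, gave 86.7, 74.9 and 87.9 on glucose against 169, 124 and 156 on standard medium (difference -0.83, SE 0.12, adjusted p = 0.0208; -0.32 and not called with quantile normalization). Of 13 glycolytic genes Hex-C, a hexokinase, fell (difference -0.60, SE 0.09, adjusted p = 0.0207), 0 rose, and the median was -0.04 (0.13 with quantile normalization, -0.21 without standard 2, 0.05 without standard 1 and -0.34 without standard 2 and 3).

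Respiratory chain and ATP synthase genes lay on one side. All 27 tested had a negative difference, from -0.74 to -0.26 with a median of -0.52, and in 25 the glucose libraries lay below each standard library (15.1% of all genes). By the test, cytochrome c (Cyt-c-p) alone of the 27 fell, at 142, 141 and 159 on glucose against 258, 224 and 245 on standard medium (difference -0.71, SE 0.11, adjusted p = 0.0208; -0.02 with quantile normalization). The median of the 27 was -0.71, -0.26 and -0.67 in repeats 1, 2 and 3, and -0.11 with quantile normalization. Without agar 3 there were 13 called lower, and without glucose 1, 2 or 3 or standard 2 or 3 none. The 14 vacuolar ATPase and copper cell genes, which acidify organelles and the middle midgut, had 0 called by limma. Of them 9 had an unadjusted p under 0.05, 1 higher and 8 lower on glucose. Their median of -0.30 became 0.21 with quantile normalization.

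Genes that carry secreted proteins into the endoplasmic reticulum were lower on glucose. Of 27 tested genes of ER translocation and folding 6 fell and 0 rose (3.55% of all genes fell), 22 had glucose libraries below every standard library (15.1% of all genes), and 26 had a negative difference, with a median of -0.40. Sec61gamma, a subunit of the translocation channel, stood at 22.5, 24.1 and 26.9 on glucose against 42.5, 43.0 and 44.8 on standard medium (difference -0.80, SE 0.10, adjusted p = 0.0148). TRAM, beside the channel, gave 10.5, 9.30 and 9.25 on glucose against 21.2, 16.1 and 15.8 on standard medium (difference -0.79, SE 0.09, adjusted p = 0.00960), and SsRbeta, of the translocon-associated complex, gave 44.8, 47.3 and 54.2 on glucose against 90.7, 75.5 and 82.6 on standard medium (difference -0.75, SE 0.11, adjusted p = 0.0205). Sec61alpha and the chaperones Gp93 and Cnx99A fell by 0.69, 0.79 and 0.35. Hsc70-3, the ER chaperone BiP, had a difference of -0.75 (adjusted p = 0.0508).

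The 7SL RNA is the RNA of the signal recognition particle, which brings ribosomes to the ER. Its 2 gene copies, 7SLRNA:CR32864 and 7SLRNA:CR42652, had equal values in the files and fell, with 2.66, 3.33 and 4.58 on glucose against 7.15, 24.1 and 16.1 on standard medium (difference -1.77, SE 0.26, adjusted p = 0.0198). The levels were highest in standard 2 and 3, the libraries in which ribosomal RNA and histones stood out, and the part this plays was not tested. For the 27 protein genes the median was -0.66 in repeat 1, with standard 1, and -0.46 with standard 2 and 3 left out. None was called without glucose 2 or 3 or standard 2 or 3, and 10 were without agar 3. Without the pairing block 2 were called, and with quantile normalization, where the median was -0.25, 1 was. Pebp1, a phosphatidylethanolamine-binding protein gene chosen after its values were seen, also fell, with 902, 748 and 805 on glucose against 2918, 1845 and 2209 on standard medium (difference -1.48, SE 0.20, adjusted p = 0.0166).

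**Figure D4:**
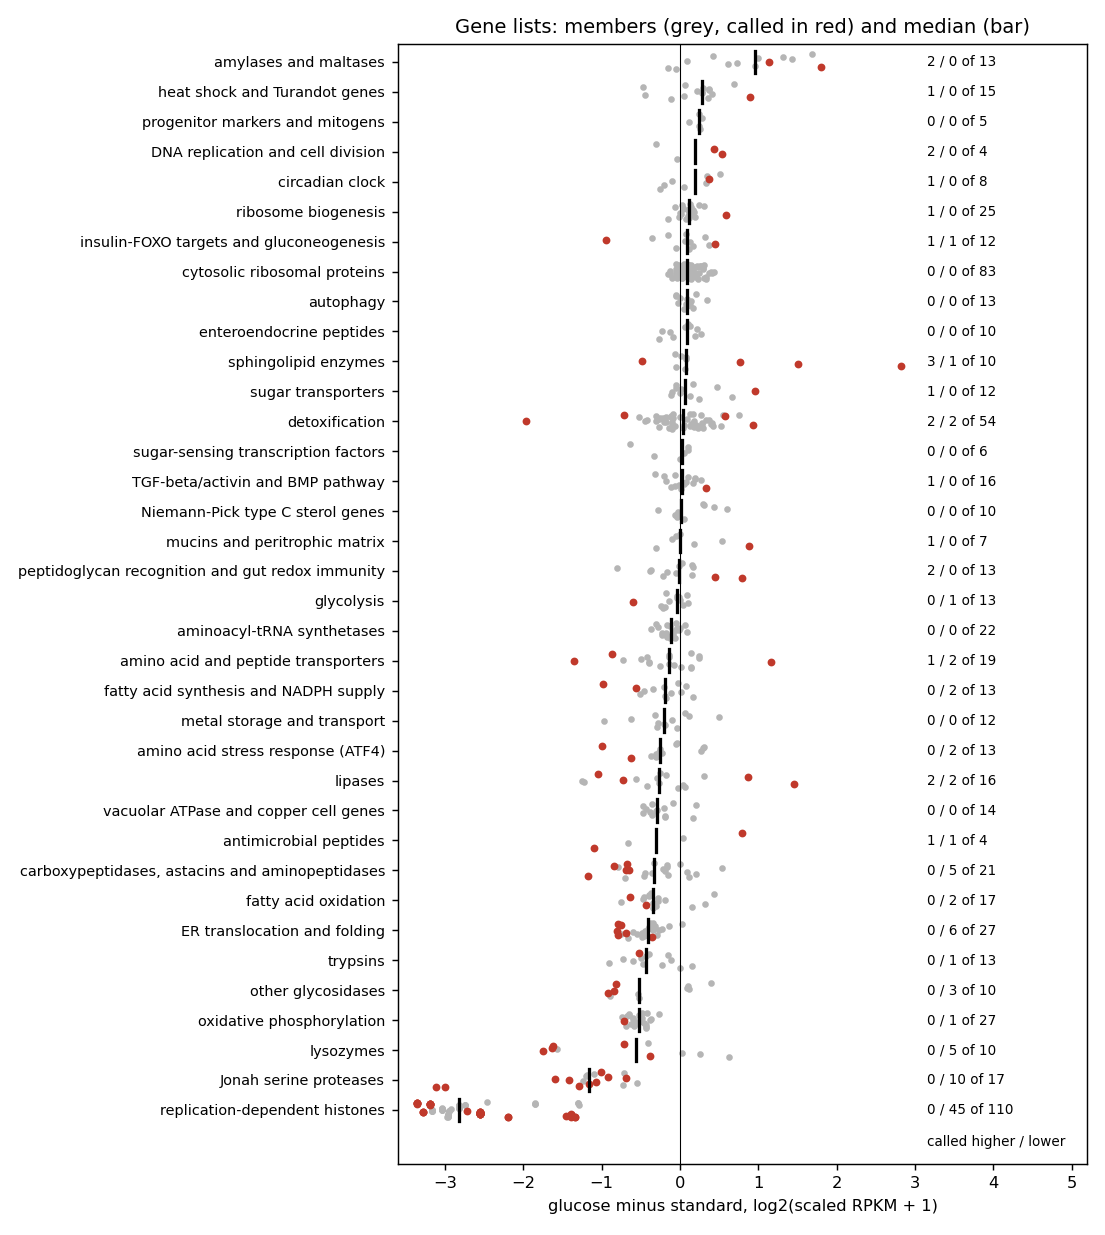
Each row is a gene list and each point a tested member, placed by its difference, glucose minus standard medium, on the log2(scaled RPKM + 1) scale; red points were called, bars are medians and the text at the right gives genes called higher and lower of those tested. Amylases and maltases have the highest median, 0.96, and histones the lowest, -2.81, followed by Jonah serine proteases at -1.16.

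The 12 largest falls, among called genes that reached a mean of 10 scaled RPKM on either diet and did not overlap, were histone genes. Of 110 replication-dependent histone genes, which package new DNA in dividing or endocycling cells and whose mRNAs lack a poly(A) tail, 45 fell and 0 rose, with a median of -2.81. His4:CG33899 stood at 20.9, 36.8 and 30.3 on glucose against 40.7, 1003 and 662 on standard medium (difference -3.36, SE 0.72, adjusted p = 0.0458). Standard 1 was near the glucose libraries, and standard 2 and 3 were far above. The median of the 110 was -0.68 in repeat 1 and -4.22 and -3.68 in repeats 2 and 3, and with standard 2 and 3 left out it was -0.89 with 0 called. Ribosomal RNA, which also lacks a poly(A) tail, was high in the same libraries, and its part in the histone result was not tested. The library kit that the labels name takes up mRNA by that tail. None of the 110 was called without glucose 1, 2 or 3 or standard 2 or 3 or without the pairing block, and 108 were without standard 1. The values of 103 histone genes equal those of another gene, so they are far from 110 measurements.

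Other genes of growth and division had smaller differences than the histones. Of 20 DNA replication and division genes in the files 4 were above the filter. Of these RnrS, a subunit of ribonucleotide reductase, and dap, an inhibitor of cyclin-dependent kinase, rose (1.89% of all genes rose). Neither was called without glucose 1, 2 or 3 or standard 2 or 3. RnrS gave 11.3, 10.5 and 9.57 on glucose against 7.31, 8.25 and 5.46 on standard medium (difference 0.53, SE 0.09, adjusted p = 0.0278) and dap 2.38, 2.39 and 2.36 on glucose against 1.61, 1.46 and 1.45 on standard medium (difference 0.43, SE 0.06, adjusted p = 0.0189). All 5 tested progenitor markers and mitogens had a positive difference (51.6% of all tested genes did), from 0.12 to 0.28, and 0 were called by limma (3 had an unadjusted p under 0.05). The stem cell factor esg stood at 5.58, 5.39 and 5.39 on glucose against 4.20, 4.70 and 4.07 on standard medium (difference 0.28, adjusted p = 0.0671). Of 25 ribosome biogenesis genes Non1 (listed as CG8801), a nucleolar GTPase, rose (difference 0.58, SE 0.10, adjusted p = 0.0287), and 0 of 83 cytosolic ribosomal protein genes were called by limma (4 had an unadjusted p under 0.05), with medians of -0.25, 0.36 and 0.18 in repeats 1, 2 and 3.

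The series' title concerns activin signalling as a sensor of sugar. In the fly, Dawdle (daw) is an activin-like ligand, Baboon (babo) and Punt (put) are its receptors and Smox is the Smad that carries the signal. None of these 4 genes was called. The ligand daw stood at 15.7, 15.3 and 26.7 on glucose against 17.1, 13.4 and 19.4 on standard medium and at 11.9, 10.6 and 11.3 on agar (difference 0.17, adjusted p = 0.540; -0.02 without glucose 3, the library with the highest value). The receptor genes and Smox were near level: babo had a difference of -0.01, put of 0.19 and Smox of -0.07, with adjusted p of 0.952, 0.152 and 0.680, and babo changed sign when glucose 3 or standard 2 was left out. Of the 16 tested genes of activin and BMP signalling Mad, the Smad of the BMP branch, rose, at 7.75, 8.17 and 8.47 on glucose against 6.16, 6.18 and 6.49 on standard medium (difference 0.33, SE 0.06, adjusted p = 0.0374), and 0 fell. Without any 1 library other than agar 3 Mad was not called.

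Sugar-responsive transcription factors and insulin genes had few calls. The factor sug (sugarbabe) stood at 66.3, 41.7 and 56.7 on glucose against 106, 58.2 and 97.3 on standard medium and at 38.0, 18.9 and 14.1 on agar (difference -0.64, adjusted p = 0.165), called lower without agar 3. Of the 6 tested factors 0 were called by limma in the fit of all libraries (2 had an unadjusted p under 0.05), and Mio and bigmax, partners in glucose sensing, had differences of -0.33 and 0.06. Of 12 tested insulin and gluconeogenesis genes ImpL2, which binds and holds back insulin-like peptides, rose (difference 0.45, SE 0.09, adjusted p = 0.0380) and Pepck, described above, fell. The insulin receptor InR, a gene induced by FOXO, stood at 0.833, 0.804 and 1.67 on glucose against 0.634, 0.725 and 1.42 on standard medium (difference 0.13, adjusted p = 0.349).

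The 12 largest rises with a mean of at least 10 scaled RPKM also held genes outside the lists. Alp2, an alkaline phosphatase gene, rose the most, at 22.5, 29.2 and 39.2 on glucose against 2.11, 1.82029 and 1.17 on standard medium and at 13.97, 31.3 and 23.5 on agar (difference 3.52, SE 0.28, adjusted p = 0.00450). CG13215 gave 23.5, 32.0 and 23.8 on glucose against 2.11, 3.59 and 1.61 on standard medium (difference 3.02, SE 0.13, adjusted p = 0.000558). The glucose libraries of both were above every standard library and beside the agar libraries. CG34203 stood at 157, 146 and 168 on glucose against 51.0, 61.8 and 43.8 on standard medium (difference 1.58, SE 0.21, adjusted p = 0.0166), and CG42656 at 85.7, 136 and 139 on glucose against 46.0, 55.4 and 46.0 on standard medium (difference 1.24, SE 0.18, adjusted p = 0.0207). CG7298, CG8745, CG13078 and Cyt-b5-r (a cytochrome b5-related gene) rose by 1.36, 1.29, 1.27 and 1.197, and the called members of lists among the 12 were CG15533, CG15534, CG5535 and Mal-A4. Chosen after their values were seen, a further alkaline phosphatase, Alp10 (listed as CG10592), gave 408, 536 and 627 on glucose against 314, 268 and 277 on standard medium (difference 0.85, SE 0.17, adjusted p = 0.0388), and the aldo-keto reductase Akr1B (listed as CG6084), of the aldose reductase family, gave 109.9, 114 and 128 on glucose against 59.7, 62.4 and 54.6 on standard medium (difference 0.98, SE 0.16, adjusted p = 0.0272).

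Detoxification and stress genes moved singly. Of 54 tested detoxification genes 2 rose and 2 fell (median 0.04), near the shares over all genes (1.89% rose and 3.55% fell). Cyp6a2, a cytochrome P450, rose, at 106, 110.5 and 119 on glucose against 78.4, 48.2 and 51.5 on standard medium (difference 0.93, SE 0.17, adjusted p = 0.0332), and GstD2, a glutathione S-transferase, fell, at 2.28, 2.28 and 2.08 on glucose against 10.6, 7.28 and 19.8 on standard medium (difference -1.97, SE 0.29, adjusted p = 0.0198). Ugt37b1 fell by 0.72 and Ugt37a1 rose by 0.58, both UDP-glycosyltransferases. Of 15 heat shock and Turandot genes Hsp23, a small chaperone, rose (difference 0.90, SE 0.19, adjusted p = 0.0468), with a list median of 0.28 that was -0.10 without standard 2 and 0.60 without glucose 1. Of 7 mucin and peritrophic matrix genes Muc55B rose (difference 0.88, SE 0.19, adjusted p = 0.0460), and of 8 clock genes per, at 0.996, 1.37 and 1.07 on glucose against 0.649, 0.774 and 0.565 on standard medium, rose (difference 0.37, SE 0.07, adjusted p = 0.0404). None of these lists held a call without glucose 1, 2 or 3, and, of the genes higher on glucose, none without standard 2 or 3.

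Enteroendocrine peptide genes had differences from -0.27 to 0.26. In 1 of the 10 tested, Dh31, the glucose libraries lay below every standard library (15.1% of all genes). The summed level of the 10, most of it from Dh31, was 5093, 4738 and 5174.5 scaled RPKM on glucose against 6160, 5620 and 5663 on standard medium. Of 10 tested 0 were called by limma (2 had an unadjusted p under 0.05, 1 higher and 1 lower), and the median was 0.09. Dh31, at 4933, 4565 and 4980.1 on glucose against 5995, 5446 and 5487 on standard medium, had the highest level (difference -0.23, adjusted p = 0.338). The receptor of its peptide, Dh31-R (listed as Dh31-R1 and chosen after its values were seen), fell from 8.72, 8.45 and 10.8 to 3.98, 4.28 and 4.42 (difference -0.98, SE 0.11, adjusted p = 0.0119). The 13 tested autophagy genes had 0 called by limma (1 had an unadjusted p under 0.05) and a median of 0.09. The 12 metal storage and transport genes had 0 called (5 had an unadjusted p under 0.05, 1 higher and 4 lower). Their median was -0.20 (0.06 with quantile normalization and -0.11 without standard 1).

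Markers of tissues near the gut were looked at for the same 6 libraries. Of 15 muscle markers, which visceral muscle also expresses, the actin gene Act57B fell (difference -0.61, SE 0.13, adjusted p = 0.0428; -0.05 with quantile normalization), 0 rose and the median was -0.18 (0.05 with quantile normalization). The summed level of the 15 was 695, 709 and 495 scaled RPKM on glucose against 788, 794 and 609 on standard medium. Fat body markers (5 tested, 0 called by limma and 0 with an unadjusted p under 0.05) summed to 315, 368 and 357 on glucose against 460, 390 and 351 on standard medium, with the yolk protein gene Yp2 at a difference of -0.53 (adjusted p = 0.305). Malpighian tubule markers (4 tested, likewise 0 and 0) summed to 4.44 to 6.37 in the 6 libraries, with TyrR at 3.16, 2.55 and 2.03 on glucose against 2.46, 1.76 and 3.02 on standard medium, and Syx1A, the 1 neuron marker tested, ranged from 4.51 to 8.42. No haemocyte marker passed the filter, and Hml, nimC1 and Sr-CI averaged at most 0.123 on either diet. Of the ovary markers osk reached 2.01 in glucose 2 and at most 0.0906 in the other 5, and vas averaged 0.0864 on glucose and 0.0424 on standard medium. What part these tissues have in the changes above was not tested.

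**Figure D5:**
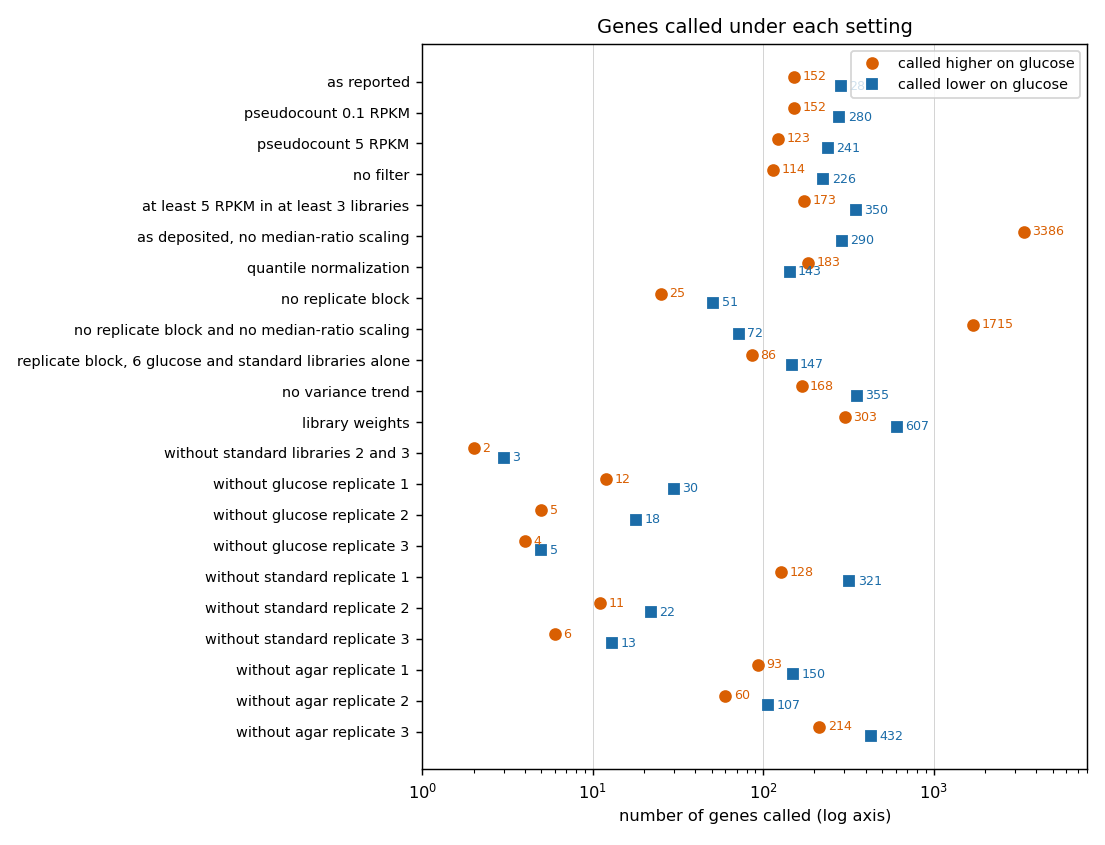
Number of genes called higher (circles) and lower (squares) on glucose under each setting, on a log axis; the top row is the fit reported in the text, with 152 higher and 285 lower. Without scaling the genes called higher number 3386, and without glucose 3 they number 4.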

How the data were processed

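Total RNA of the guts went into TruSeq Stranded mRNA libraries, per the labels. CASAVA 1.82, Bowtie2 2.1 and limma were the authors' tools, per the submitters' processing notes. Which genome build and annotation they used, and whether reads were counted by strand, is not given in the sources used here. Deposited values are log2 RPKM, 1 per gene and library. RPKM was taken as 2 to the power of the value, divided by a median-ratio factor for each library (1.07 for the 3 glucose libraries, 0.824 to 0.877 for standard medium and 1.08 to 1.12 for agar), and compared as log2(RPKM + 1). Library totals were recovered from the values, with whole reads for 61.8% of 4240 genes of 1 transcript (relative tolerance 1e-09). Depth limits the precision of low values, and no counting interval is given.

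One limma fit over the 9 libraries, with diet and repeat number as terms and a variance trend (residual df 4, median prior df 3.04), gave all tests, two-sided, with Benjamini-Hochberg adjustment over 8036 genes. Residuals from the diet means correlated at 0.176 to 0.591 between same-numbered libraries and at -0.531 to 0.286 between others. The ranges overlap, as standard 2 correlated more with agar 3 (0.286) than with agar 2 (0.176). Residuals from a diet mean sum to 0, which favours opposite signs in the 2 kinds of pair. The labels call the repeats biological but do not say what a number shares. The p-values rest on the spread left after the diet and repeat terms, pooled over all 9 libraries, agar included. Genes are named by a rule: the 12 largest rises and 12 largest falls among called genes with a mean of at least 10 scaled RPKM and no overlap, up to 3 called members per direction of each of 43 lists, daw, babo, Smox, put, sug, tobi, Amy-p, Mal-A1, mag, Thor, Npc1b and InR, and the marker of highest level for each other tissue. All 12 falls were histones, so the 12 next, and genes said to be chosen after their values were seen, were added. The comparison, members and lists were chosen with earlier results of these data known, and the pattern for ribosomal protein names was tightened after values had been seen. Of 10245 gene names 7878 were current symbols, 2198 older ones and 169 had no match. The values of 176 tested genes equal those of another tested gene.

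Alternatives were pseudocounts of 0.1 and 5 RPKM, no filter, a filter of 5 RPKM, the values as deposited without scaling, quantile normalization, no replicate block with and without scaling, the 6 libraries alone, no variance trend, library weights, standard 2 and 3 left out, and leaving out every library singly. The fit was also run on simulated data, with noise drawn alike for every library. No library was set apart there as standard 2 and 3 are here, so that run does not vouch for these calls. No genome of a named build was at hand, so no coordinate or sequence is given. The tests ran in R 4.3.3 with limma 3.58.1. Tables and figures were made in Python 3.11.15 with pandas 2.3.3, NumPy 2.4.6 and Matplotlib 3.10.9.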

Additional observations from a re-analysis of the deposited data

How the results depend on the processing

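Both counts of calls depended on how spread was estimated and on single libraries. Without the replicate block 25 genes were called higher and 51 lower. Without the block or scaling the counts were 1715 and 72, and with the values as deposited and the block 3386 and 290. The block with the 6 libraries alone gave 86 and 147, library weights 303 and 607, and the fit without standard 2 and 3 gave 2 and 3. Quantile normalization gave 183 and 143. Pseudocounts, filters and no variance trend kept both counts within 1.5 times. With 1 library left out the counts ranged from 4 to 214 higher and from 5 to 432 lower. Of the 98 named genes called, 59 were called with quantile normalization, 92 with the values as deposited and 27 without the block; these losses do not measure the size of an effect.

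Some differences changed sign. With quantile normalization zetaTry was at 0.16, CG8773 at 0.014, Amy-p at 0.20, mag at 0.19 and Npc1b at 0.17. As deposited, with or without the block, babo was at 0.26, Smox at 0.21, Amy-p at 0.16, mag at 0.065 and Npc1b at 0.28, beside a shift of 0.25 in all genes. With the filter of 5 RPKM babo was at 0.023 and Npc1b at 0.012, and without standard 2 and 3 babo was at 0.080, Smox at 0.014 and Npc1b at 0.0051. With 1 library left out daw ranged from -0.021 (without glucose 3) to 0.32, babo from -0.12 to 0.083 (without glucose 3), Amy-p from -0.57 to 0.17 (without glucose 1) and Npc1b from -0.13 to 0.062 (without glucose 2). Except for zetaTry and CG8773, none of these was called in the reported fit, and the cause was not tested.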
